A study of Mus musculus with 6 samples.

Results

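The Notch receptors, their ligands and a pair of their target genes were followed in whole mouse kidney by RNA sequencing. They comprise 10 of the 24422 genes of the count tables and were chosen by gene symbol: the receptors Notch1, Notch2, Notch3 and Notch4, the ligands Jag1, Jag2, Dll1 and Dll4, and the targets Hes1 and Hey1. All 10 were found in the tables and all 10 passed the filter on low counts. 6 libraries of whole kidney RNA were compared. The 3 control libraries came from wild type C57BL/6 mice and the 3 TfR1KO;KspCre libraries (genotype Tfr1f/f;KspCre, called knockout here) from mice of the same strain in which floxed exons 3 and 4 of the transferrin receptor gene Tfrc (TfR1) are removed by Cre. All 6 mice were taken at postnatal day 60 and fed a diet with 220 ppm iron. In KspCre mice the recombinase is expressed from the promoter of Ksp-cadherin, a gene of the distal nephron, so cells of vessels, glomeruli and interstitium contribute to these whole kidney libraries although the deletion is aimed at tubules.

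Notch receptors are membrane proteins that are bound by Jagged and Delta-like ligands on a neighbouring cell. Binding leads to cleavage by ADAM proteases and then by gamma-secretase, and the released intracellular domain joins the DNA-binding protein RBPJ and a Mastermind protein to switch on targets such as the Hes and Hey repressors. In the kidney the pathway is known for patterning the nephron during development, for the choice between principal and intercalated cells in the collecting duct, and for the maintenance of vessels. Notch3 is best known from smooth muscle cells and pericytes of vessels, and Notch4 and Dll4 from endothelium.

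Total counts ranged from 18036845 to 21001341 in the controls and from 11501053 to 19576330 in the knockouts, with the lowest total in knockout 3. Knockout 1 stood apart from the other knockouts: on the first principal component, which held 69.4% of the variance, it lay at 9.67, whereas the controls lay between -72.58 and -53.15 and knockouts 2 and 3 lay at 88.61 and 82.13. Control 2 stood apart in sex-linked transcripts, with an Xist-to-Y ratio (Xist over 4 Y-linked genes, log2) of -6.23 against 10.77 to 12.29 in the other 5 libraries. Tfrc itself was at 138.5, 167.9 and 61.95 CPM in the controls (counts per 1e6 counts of a library, with library sizes scaled by TMM, as for every CPM value given) and at 214.4, 85.96 and 40.6 CPM in the knockouts, a difference of -0.11 on the log2 scale (SE 0.62, edgeR adjusted p = 0.911). The library labelled knockout 1 thus had the highest Tfrc of all 6, which goes against a lower transcript level there, and the gene did not bear out the labels by which the knockouts are named. The counts cover the whole gene and not the floxed exons. Cdh16, which encodes Ksp-cadherin, was present in every library, at 1344 to 1540 CPM in the controls and 805.5 to 1424 CPM in the knockouts.

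The 4 members that passed the test for a genotype difference and that have an entry in the RefSeq promoter table are given here with their promoters, because they were higher in the same comparison. Each window is 300 bases, from 250 before to 50 after the transcription start, read 5′ to 3′ on the strand of the gene. Positions are on GRCm38.p6, a later build than the mm9 build the reads were aligned to. Capitals mark the GC box GGGCGG on either strand, and GC boxes that overlap each other were counted separately.

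Notch1, chr2:26503773-26504072, minus strand: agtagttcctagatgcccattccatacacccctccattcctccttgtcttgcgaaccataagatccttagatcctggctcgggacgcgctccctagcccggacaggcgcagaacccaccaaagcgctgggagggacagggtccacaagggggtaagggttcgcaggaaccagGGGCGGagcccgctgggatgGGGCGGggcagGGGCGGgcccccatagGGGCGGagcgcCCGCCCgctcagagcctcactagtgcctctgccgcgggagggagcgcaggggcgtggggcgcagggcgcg
Notch3, chr17:32166841-32167140, minus strand: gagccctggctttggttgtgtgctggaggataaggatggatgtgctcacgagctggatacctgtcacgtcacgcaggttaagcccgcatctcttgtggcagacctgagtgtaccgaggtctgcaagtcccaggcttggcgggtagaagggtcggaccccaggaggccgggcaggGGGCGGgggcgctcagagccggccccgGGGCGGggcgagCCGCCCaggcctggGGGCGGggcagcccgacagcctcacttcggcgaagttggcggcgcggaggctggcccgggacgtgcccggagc
Jag1, chr2:137116471-137116770, minus strand: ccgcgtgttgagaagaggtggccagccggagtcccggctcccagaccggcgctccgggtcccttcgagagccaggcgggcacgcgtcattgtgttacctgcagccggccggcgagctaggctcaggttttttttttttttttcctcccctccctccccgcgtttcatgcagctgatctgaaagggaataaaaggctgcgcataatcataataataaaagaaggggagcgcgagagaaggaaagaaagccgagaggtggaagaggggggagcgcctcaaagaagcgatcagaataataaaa
Jag2, chr12:112929446-112929745, minus strand: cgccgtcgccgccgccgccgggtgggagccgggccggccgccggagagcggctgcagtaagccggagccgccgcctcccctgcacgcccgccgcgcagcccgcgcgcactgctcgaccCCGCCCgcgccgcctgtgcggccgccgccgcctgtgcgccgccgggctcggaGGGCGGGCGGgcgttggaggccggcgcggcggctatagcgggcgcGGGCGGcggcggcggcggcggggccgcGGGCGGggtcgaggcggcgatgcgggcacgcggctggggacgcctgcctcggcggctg

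The Notch1 window held 5 GC boxes, the Notch3 window 4, the Jag2 window 5 and the Jag1 window 0. The motif was found in 35.66% of the 32851 promoters of the table, the reverse complement included. Among members that were not called, the window of Notch2 held 7 GC boxes and that of Dll4 2, whereas those of Notch4 and of both start sites of Dll1 held 0. GC content was 68.3% for Notch1, 70.0% for Notch3, 55.7% for Jag1 and 86% for Jag2, against a median of 52.67% over all promoters of the table. The letters TGGGAA, the core of the motif bound by RBPJ, were in none of the 9 windows of the 8 members that matched, on either strand, and were in 25.56% of all promoters. These matches describe letters in a window and not bound sites.

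Of the 10 genes, 5 were higher in knockout kidneys and none was lower. They were the receptors Notch1 and Notch3, the ligands Jag1 and Jag2, and the target Hey1, with rises of 2.08-fold to 3.60-fold (edgeR quasi-likelihood test, Benjamini-Hochberg adjusted over 15171 genes, called at an adjusted p under 0.05). Over all genes tested 17.2% were called in either direction, 10.6% higher and 6.64% lower. The log2 fold change was positive for all 10 genes, with a median of 0.83 against 0.02 over all genes tested. In 6 of the 10 genes every knockout library lay above every control library, which held for 23.8% of all genes tested, and for 46.0% the groups did not overlap in one direction or the other.

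**Figure D1:**
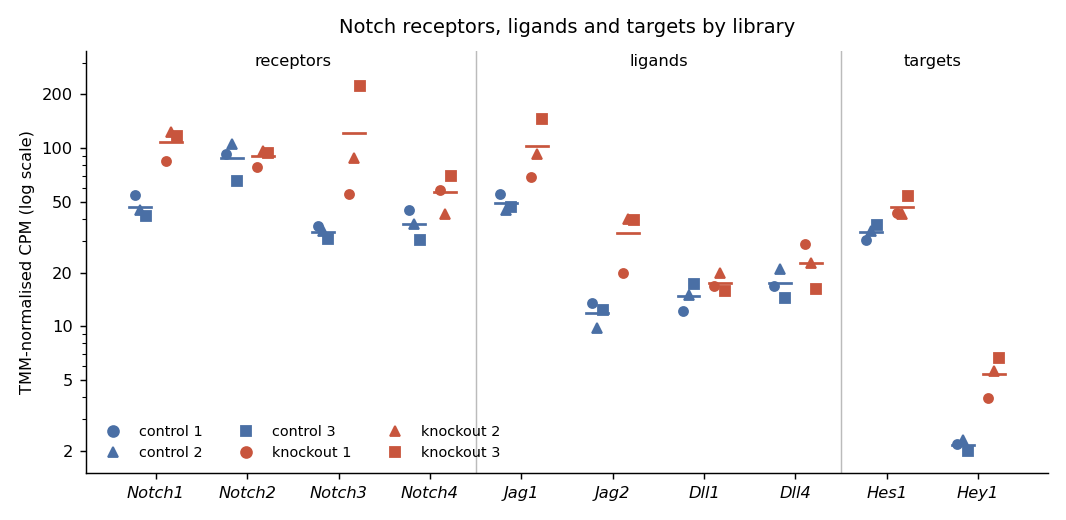
Level of each Notch gene in every library in TMM-normalised CPM on a log axis, with controls in blue, knockouts in red, marker shapes for the replicate number and a bar at each group mean (n = 3). The groups are separated for Notch1, Notch3, Jag1, Jag2, Hes1 and Hey1, and Notch3 in knockout 3 reaches 223.2 CPM.

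Among the receptors, Notch1 (chr2:26313423-26372183 on mm9, minus strand) was at 54.2, 45.0 and 41.7 CPM in the controls, in the order of their replicate numbers, and at 85.0, 123.3 and 116.5 CPM in the knockouts. Every knockout library exceeded every control. The means were 47.0 ± 6.51 and 108.3 ± 20.4 CPM (SD, n = 3 each), and the difference on the log2 scale was 1.20 (SE 0.19, 95% interval 0.76 to 1.65, edgeR adjusted p = 0.0277). Notch1 is the receptor most widely studied in development and in T cells.

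Notch3 (chr17:32257765-32303825 on mm9, minus strand) was at 36.6, 34.3 and 30.9 CPM in the controls and at 55.5, 88.3 and 223.2 CPM in the knockouts. The controls were close together, whereas the knockouts spread widely, with knockout 3 far above the others. The means were 33.95 ± 2.87 and 122.3 ± 88.9 CPM (SD, n = 3 each), and the log2 fold change was 1.85 (SE 0.49, 95% interval 0.69 to 3.00, edgeR adjusted p = 0.0457), the largest of the 10 genes. Without knockout 3 it was 1.08 and was no longer called (edgeR adjusted p = 0.061).

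Notch2 (chr3:97817461-97954290 on mm9, plus strand) is the receptor known for its role in forming the proximal nephron. Its levels were 92.9, 105.3 and 65.7 CPM in the controls and 78.2, 96.6 and 94.5 CPM in the knockouts, so that all 3 knockouts lay within the control range. The log2 fold change was 0.03 (SE 0.20, 95% interval -0.45 to 0.50, edgeR adjusted p = 0.93), an interval that holds neither the fold change of Notch1 nor that of Notch3. The difference between receptors was not itself tested by this model.

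Notch4 (chr17:34701213-34725448 on mm9, plus strand) was at 44.6, 37.3 and 30.6 CPM in the controls and at 58.1, 42.9 and 70.0 CPM in the knockouts. Knockout 2 fell within the control range. The log2 fold change was 0.60 (SE 0.22, 95% interval 0.07 to 1.13) and did not pass the test (edgeR adjusted p = 0.0962).

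Among the ligands, Jag1 (chr2:136907192-136942380 on mm9, minus strand), the ligand altered in Alagille syndrome, was at 55.2, 45.2 and 46.8 CPM in the controls and at 68.7, 92.8 and 144.9 CPM in the knockouts. As for Notch3, the lowest knockout was knockout 1 and the highest knockout 3. The means were 49.1 ± 5.36 and 102.2 ± 39.0 CPM (SD, n = 3 each) and the log2 fold change was 1.06 (SE 0.27, 95% interval 0.41 to 1.71, edgeR adjusted p = 0.0445).

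Jag2 (chr12:114146801-114167706 on mm9, minus strand), the other Jagged ligand, was at 13.4, 9.76 and 12.3 CPM in the controls and at 19.97, 40.2 and 39.5 CPM in the knockouts. Knockouts 2 and 3 were alike and both stood well above knockout 1. The means were 11.8 ± 1.88 and 33.2 ± 11.5 CPM (SD, n = 3 each) and the log2 fold change was 1.49 (SE 0.30, 95% interval 0.78 to 2.20, edgeR adjusted p = 0.0311).

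The Delta-like ligands did not pass the test. Dll1 (chr17:15504318-15513836 on mm9, minus strand), a ligand used in nephron segmentation, was at 12.1, 14.9 and 17.3 CPM in the controls and at 16.9, 19.9 and 15.7 CPM in the knockouts, with a log2 fold change of 0.25 (SE 0.20, 95% interval -0.23 to 0.72, edgeR adjusted p = 0.397). Dll4 (chr2:119151520-119161698 on mm9, plus strand), the ligand of sprouting endothelium, was at 16.8, 20.9 and 14.5 CPM in the controls and at 28.9, 22.7 and 16.1 CPM in the knockouts, with a log2 fold change of 0.38 (SE 0.26, 95% interval -0.23 to 0.98, edgeR adjusted p = 0.31). The groups overlapped for both genes, and for Dll4 the highest knockout was knockout 1, the reverse of the order seen for Jag1.

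Of the targets, Hey1 (chr3:8663362-8667039 on mm9, minus strand), a repressor prominent in the cardiovascular system, was at 2.19, 2.29 and 1.98 CPM in the controls and at 3.93, 5.57 and 6.67 CPM in the knockouts. These levels rested on 33 to 44 reads in the controls and 80 to 111 in the knockouts, the smallest counts of the 10 genes. The means were 2.15 ± 0.159 and 5.39 ± 1.38 CPM (SD, n = 3 each) and the log2 fold change was 1.32 (SE 0.30, 95% interval 0.59 to 2.04, edgeR adjusted p = 0.0365).

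Hes1 (chr16:30064470-30067882 on mm9, plus strand), a repressor that Notch shares with other pathways, was at 30.5, 34.4 and 37.1 CPM in the controls and at 43.5, 42.5 and 54.2 CPM in the knockouts. Every knockout library lay above every control, but the log2 fold change of 0.46 (SE 0.15, 95% interval 0.10 to 0.82) did not pass the test (edgeR adjusted p = 0.075).

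**Figure D2:**
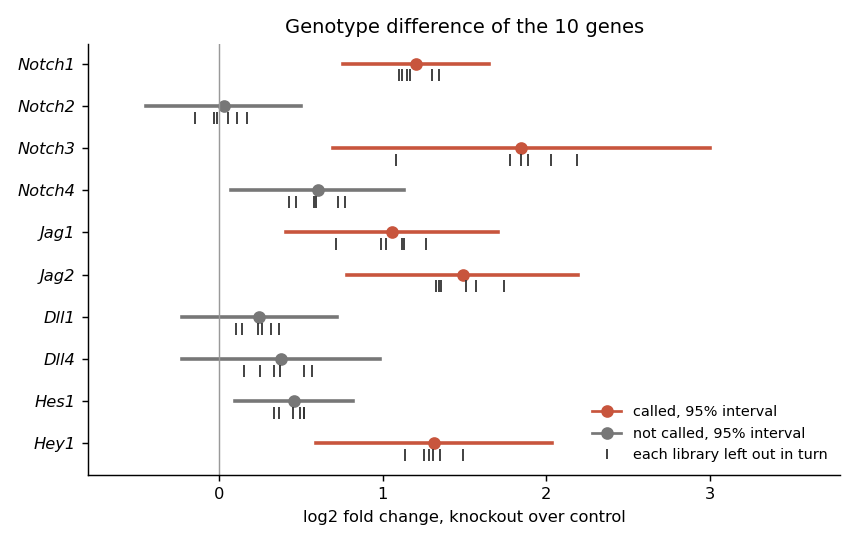
Log2 fold change of knockout over control for the 10 genes, with 95% intervals from the edgeR fit, called genes in red and others in grey, and small ticks for the values with each library left out in turn. All points lie to the right of 0, and the lowest tick of Notch3, at 1.08, is the fit without knockout 3.

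The 5 calls were lost when a single library other than knockout 1 was left out. Without any 1 of the 3 controls, or without knockout 2 or 3, 0 of the 10 genes were called by edgeR, and the number called over all genes fell from 2612 to between 0 and 73. Under these settings 5 to 7 of the 10 kept an unadjusted p under 0.05, beside 4270 to 4823 of the 15408 to 15624 genes tested. The log2 fold changes with 1 library left out ranged from 1.10 to 1.34 for Notch1, from 1.08 to 2.19 for Notch3, from 0.72 to 1.27 for Jag1, from 1.33 to 1.74 for Jag2 and from 1.14 to 1.49 for Hey1. Without control 2, the library with the low Xist ratio, the log2 fold changes were 1.17 for Notch1, 1.85 for Notch3, 0.99 for Jag1, 1.36 for Jag2 and 1.35 for Hey1, with edgeR adjusted p-values of 0.118 to 0.144. Without knockout 1 the same 5 genes were called, and they were also called with both control 2 and knockout 1 left out, an alternative chosen after seeing the data. Over all genes the calls under these settings were 5332 of 15494 and 3473 of 15428. In all 5 called genes knockout 1 was the lowest knockout library. With the Xist ratio as a covariate, or the replicate number as a block, edgeR called 0 of the 10 genes and likewise 0 of all 15171, of which 4221 and 5432 had an unadjusted p under 0.05, as did 5 and 6 of the 10. The Xist ratio mainly set control 2 apart, so the covariate fit is not a check separate from leaving out control 2. The log2 fold changes with the covariate and with the block were 1.18 and 1.20 for Notch1, 1.89 and 1.59 for Notch3, 1.02 and 1.00 for Jag1, 1.38 and 1.44 for Jag2, and 1.37 and 1.29 for Hey1. Limma-voom did not call Notch3 (adjusted p = 0.0586) or Jag1 (adjusted p = 0.0513), and with library size alone as the scaling edgeR also called Notch4 (adjusted p = 0.0405) and Hes1 (adjusted p = 0.0281).

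Levels can be compared between genes only per length of transcript, and are given in CPM per kilobase. In the controls Hes1 was the highest at 23.2, followed by Jag1 at 8.74, Notch2 at 8.37, Notch4 at 5.69, Notch1 at 4.95, Dll4 at 4.64, Notch3 at 4.22, Dll1 at 4.12, Jag2 at 2.91 and Hey1 at 0.978. Among neighbours in this order only Hes1 and Jag1, Dll1 and Jag2, and Jag2 and Hey1 did not overlap over the 3 libraries. In the knockouts Hes1 at 31.8 and Jag1 at 18.2 again led, Notch3 at 15.2 and Notch1 at 11.4 came before Notch4 at 8.65 and Notch2 at 8.54, and Hey1 at 2.45 was again the lowest. Here only Hes1 and Jag1, and Dll1 and Hey1, were neighbours that did not overlap.

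The make-up of the receptor transcripts was measured within each library, where it does not depend on scaling between libraries. Notch2 made up 34.2%, 40.6% and 32.7% of the length-scaled receptor counts in the controls and 23.2%, 23.2% and 15.1% in the knockouts. Notch3 made up 17.6%, 17.3% and 20.1% in the controls and 21.5%, 27.7% and 46.5% in the knockouts. The groups did not overlap for either gene: the mean share of Notch2 was 35.8% ± 4.21 in the controls and 20.5% ± 4.68 in the knockouts, a difference of -15.3 percentage points, and that of Notch3 was 18.3% ± 1.54 and 31.9% ± 13.1, a difference of 13.6 points (SD, n = 3 each). Without knockout 3 the difference for Notch3 was 6.25 points. Both had an exact permutation p of 0.1, two-sided, the smallest that 3 against 3 allows, and 0.2 after adjustment over the 4 receptors. The shares of Notch1 (21.4% and 27.1%) and Notch4 (24.5% and 20.6%) overlapped between groups, with an exact permutation p of 0.3 and 0.4.

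Among the ligands, Jag2 made up 15.8%, 11.9% and 15.1% of the length-scaled counts in the controls and 16.7%, 26.0% and 22.0% in the knockouts, a mean difference of 7.32 percentage points. Dll1 made up 16.1%, 20.6% and 24.1% in the controls and 15.9%, 14.6% and 9.91% in the knockouts, a mean difference of -6.78 points (20.3% ± 3.99 against 13.5% ± 3.16, SD, n = 3 each). Neither overlapped between groups, although for Dll1 control 1 and knockout 1 were nearly equal, and each had an exact permutation p of 0.1, the smallest possible, and 0.2 after adjustment over the 4 ligands. Jag1 was the most abundant ligand in every library, at 39.9% to 46.8% in the controls and 41.4% to 58.4% in the knockouts, and its share overlapped (exact permutation p = 0.6). The share of Dll4 was 22.7% in the controls and 17.2% in the knockouts on average and also overlapped (exact permutation p = 0.4).

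**Figure D3:**
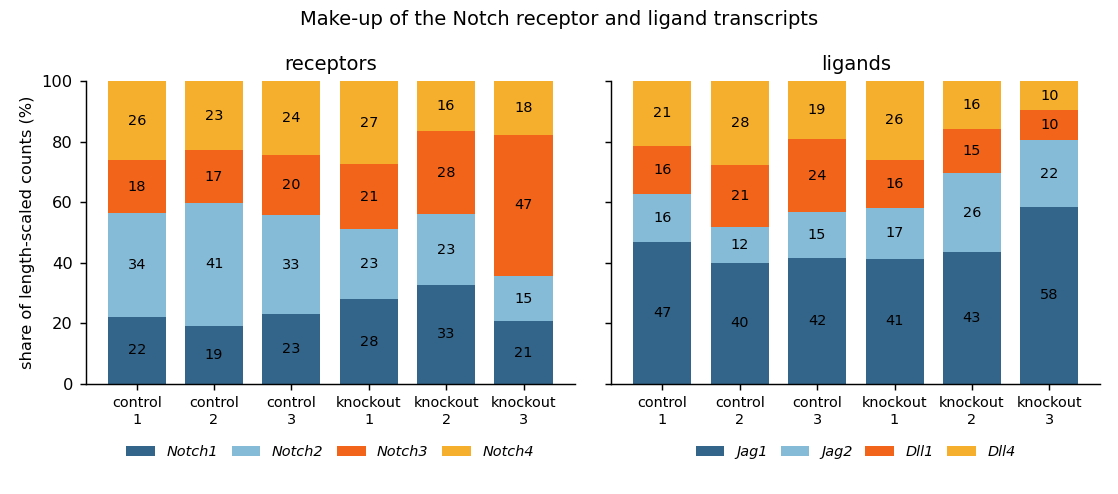
Share of each receptor (left) and each ligand (right) in the length-scaled counts of its class, as stacked bars that sum to 100% in each library. Notch2 takes a smaller share in every knockout than in any control, and Notch3 takes 46.5% in knockout 3.

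Beyond these 10 genes, 58 other genes of the pathway were examined, of which 52 passed the filter. Of the 52, 12 (23.1%) were called, beside 17.2% of all genes tested. In the knockouts 11 (21.2%) were higher, beside 10.6% of all genes, and 1 (1.92%) was lower, beside 6.64%. With any single control or knockout 3 left out edgeR called 0 of them, beside 0 to 2 of all genes. Under these settings 17 to 22 had an unadjusted p under 0.05, beside 4270 to 4823 of the 15439 to 15624 genes tested. Without knockout 2 edgeR called 2 of them, beside 73 of all genes. Maml3 and Dtx3 were not called with DESeq2 size factors, without the filter or by limma-voom, which also did not call Mfap5 and Maml2. The median log2 fold change was 0.32 against 0.02 over all genes tested, and 33 were positive. Not tested because of low counts were the ligand genes Dll3, Dlk1 and Dner and the repressor genes Hes3, Hes5 and Hes7.

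Of the ligand-like genes, 3 of 4 tested were called, all higher, beside 10.6% of all genes tested. Mfap5 and Mfap2, microfibril proteins of the extracellular matrix that can bind Notch or its ligands, had log2 fold changes of 3.94 (SE 0.69) and 1.95 (SE 0.40) with edgeR adjusted p-values of 0.0286 and 0.0317. Egfl7, a protein secreted by endothelium, was at 59.6, 55.2 and 86.2 CPM in the controls and 122.4, 113.7 and 170.2 CPM in the knockouts. Its log2 fold change was 1.02 (SE 0.24, edgeR adjusted p = 0.037), and its exons overlap those of Gm20532 and Agpat2, so that its count is uncertain.

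Of the genes that modify and cut the receptors 1 was called, beside 17.2% of all genes tested. Of the 5 glycosylation genes 0 were called by edgeR. An unadjusted p under 0.05 was found for 3 of them, beside 5862 of all 15171 genes. The fringe gene Mfng had a log2 fold change of 0.73 (adjusted p = 0.0663) and Rfng one of -0.56 (adjusted p = 0.0775). Of the 10 cleavage genes 1 was called, beside 17.2% of all genes tested, and it was lower, beside 6.64%. This was Aph1c, a subunit of gamma-secretase, which fell by 1.31 on the log2 scale (SE 0.30, edgeR adjusted p = 0.0365), from 63.8 ± 6.89 to 25.7 ± 11.1 CPM (SD, n = 3 each). Of the 100-base words of Aph1c 93.1% were unique, and its exons overlap those of Gm17098 on the opposite strand, so that its count is uncertain. The protease gene Adam10, which makes the first ligand-induced cut, had the largest rise of the list, 0.52, and was not called (edgeR adjusted p = 0.0994).

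In the nuclear complex and its corepressors, 2 of 15 genes (13.3%) were called, beside 17.2% of all genes tested. Both were higher, beside 10.6% of all genes. They were the Mastermind coactivator genes Maml2 (log2 fold change 0.98, SE 0.26, edgeR adjusted p = 0.0458) and Maml3 (0.91, SE 0.25, adjusted p = 0.0498). The largest fall was that of the corepressor gene Tle4, -0.39, which was not called (adjusted p = 0.138). Rbpj, chosen for mention after its value was seen because it encodes the DNA-binding partner of every Notch receptor, had a log2 fold change of 0.45 (SE 0.19, adjusted p = 0.128). Of its 100-base words 80.8% were unique.

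Of the trafficking and turnover genes 5 of 14 were called, all higher, beside 10.6% of all genes tested. Dtx4, a Deltex ubiquitin ligase, was at 19.4, 16.5 and 23.5 CPM in the controls and at 57.4, 134.4 and 55.9 CPM in the knockouts, a difference of 2.06 on the log2 scale (SE 0.38, edgeR adjusted p = 0.0295). Neurl1a, a ubiquitin ligase of the Neuralized family that acts on ligands, rose by 2.01 (SE 0.34, adjusted p = 0.0281), and Numbl, a relative of the Notch antagonist Numb, rose by 1.89 (SE 0.38, adjusted p = 0.0313). The exons of Numbl overlap those of Adck4 on the same strand, so that its count is uncertain. The other calls were the Deltex family genes Dtx3l (1.28, SE 0.21, adjusted p = 0.0278), whose exons overlap those of Parp9 and whose count is likewise uncertain, and Dtx3 (0.55, SE 0.15, adjusted p = 0.0493). Dtx1 had the largest fall, -0.55, and was not called (adjusted p = 0.339). Nrarp, a feedback inhibitor that is itself a Notch target and was named after its value was seen, had a log2 fold change of 1.21 (SE 0.34) and missed the threshold narrowly (adjusted p = 0.0508).

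Of the other Hes and Hey genes 1 of 4 tested was called, beside 17.2% of all genes tested. It was higher, beside 10.6% of all genes. Heyl, a repressor found in vascular smooth muscle, rose by 1.68 on the log2 scale (SE 0.25, edgeR adjusted p = 0.0276), from 6.94 ± 0.637 to 22.3 ± 6.06 CPM (SD, n = 3 each). As for Hey1, every knockout lay above every control and knockout 3 was the highest. Hes2 had the largest fall, -0.86 (SE 0.63, adjusted p = 0.349), with mean levels of 1.08 CPM in the controls and 0.571 CPM in the knockouts.

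**Figure D4:**
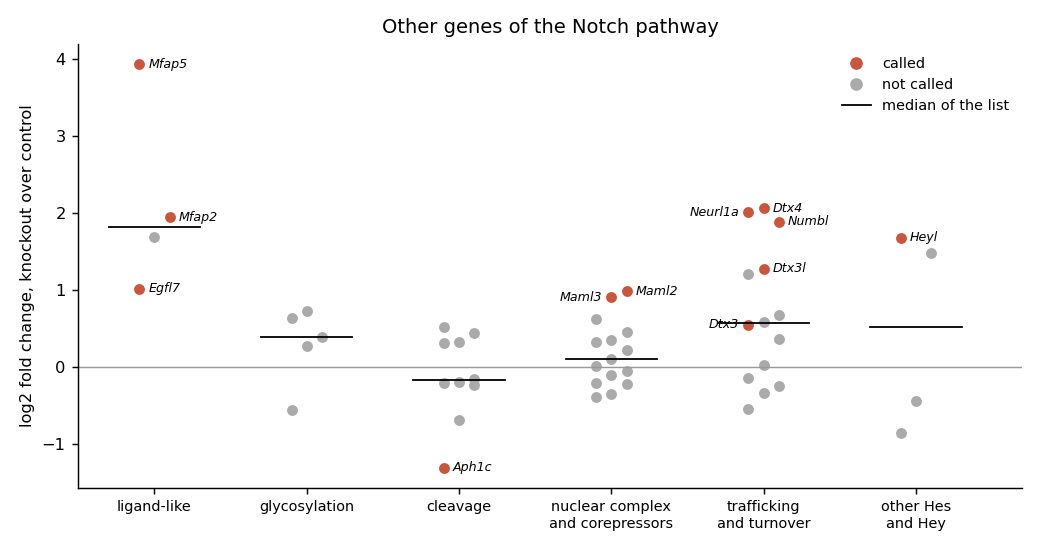
Log2 fold change of knockout over control for the 52 tested genes of the pathway other than the 10 members, by list, with called genes in red and named, others in grey and a line at the median of each list. The called genes lie above 0 except Aph1c at -1.31.

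Markers of several cell types moved with the same comparison, and in bulk RNA fewer or more cells of a type cannot be told apart from less or more RNA per cell. The summed level of 12 pericyte, smooth muscle and fibroblast markers was 591.5 to 763.5 CPM in the controls and 1170, 4087 and 6184 CPM in knockouts 1, 2 and 3, lowest in knockout 1 and highest in knockout 3. Notch3, Jag1 and Hey1 were also highest in knockout 3. Notch1 (123.3 and 116.5 CPM) and Jag2 (40.2 and 39.5 CPM) were close to level in knockouts 2 and 3. Of the 12 markers 5 were called, all higher, beside 10.6% of all genes tested. The list was not uniform: 8 of the 12 were highest in knockout 3 and 4 (Pdgfrb, Pdgfra, Col1a1 and Dcn) in knockout 2. Among the former, Acta2, which was called, was at 81.4, 343.6 and 944.8 CPM in the knockouts against at most 68.3 CPM in the controls, and Myh11 and Rgs5, which were not called (edgeR adjusted p = 0.0794 and 0.0562), reached 781.9 and 1242 CPM in knockout 3. Among the latter, Pdgfra was at 61.6, 214.2 and 53.5 CPM in the knockouts and 42.3 to 110.2 CPM in the controls, so that knockouts 1 and 3 lay within the control range. Of 10 immune markers 8 were called, all higher, beside 10.6% of all genes tested. Their sums were 173.8 to 192.5 CPM in the controls and 493.7 to 1789 CPM in the knockouts, highest in knockout 2. Of 7 markers of injured tubule 5 were called higher, beside 10.6% of all genes tested. The sums over all 7 were 1426 to 3840 CPM in the controls and 5767 to 8787 CPM in the knockouts, and most of them came from Spp1, which was not called (1031 to 3034 and 3598 to 7051 CPM, edgeR adjusted p = 0.0718). The part of these cell types in the rises of Notch1, Notch3, Jag1, Jag2 and Hey1 was not tested.

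Endothelial markers gave a different picture beside Notch4 and Dll4. Their summed level was 606.3 to 1132 CPM in the controls and 1115 to 1260 CPM in the knockouts, the groups overlapped, and edgeR called 0 of the 10, with 3 at an unadjusted p under 0.05. The summed podocyte markers also overlapped between groups (525.9 to 651.5 and 637.8 to 941.8 CPM). Of these 5 markers 1 was called, higher, beside 10.6% of all genes tested. Of the tubule lists, 6 of 8 proximal tubule markers were called lower (10480 to 13610 and 1806 to 5568 CPM), beside 6.64% of all genes tested. For the distal convoluted tubule 1 of 3 markers was called lower (1180 to 1800 and 92.6 to 1295 CPM), beside the same 6.64%. Markers of the thick ascending limb (3838 to 9549 and 845.9 to 6149 CPM), principal cells (787.9 to 1142 and 277.2 to 1428 CPM) and intercalated cells (334.6 to 420.5 and 168.7 to 537.2 CPM) had 0 of 5 called each by edgeR, beside 17.2% of all genes tested. An unadjusted p under 0.05 was found for 1 intercalated marker and none of the others, beside 5862 of all 15171 genes. No marker gene was at 0 in any library, so kidney tubule, vessel and glomerulus were represented in all 6.

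**Figure D5:**
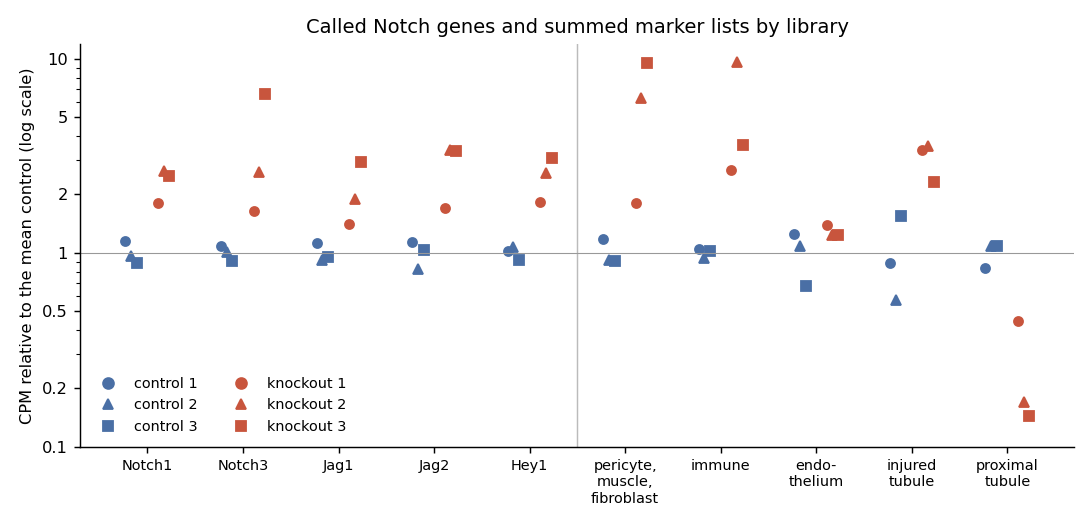
Level of the 5 called Notch genes (left) and summed level of 5 marker lists (right) in each library, relative to the mean control on a log axis. The pericyte, muscle and fibroblast sum is highest in knockout 3, at 6184 CPM, where Notch3, Jag1 and Hey1 are also highest. The immune sum is highest in knockout 2, at 1789 CPM against 663.6 CPM in knockout 3. Notch1 (123.3 and 116.5 CPM) and Jag2 (40.2 and 39.5 CPM) are close to level in knockouts 2 and 3. The endothelial sum overlaps between groups.

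The counts of the 10 genes are little exposed to sequence shared with other genes, since all of their 100-base words were unique among the transcripts compared. Exons of Notch1, Notch3, Dll1 and Dll4 overlap noncoding transcripts on the opposite strand, and the strand setting of the counting is not stated in the sources used here. Of those transcripts only Gm14207, opposite Dll4, is in the tables, with 27 to 57 reads per library.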

How the data were processed

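Poly-A RNA of 3 control and 3 TfR1KO;KspCre kidneys was sequenced as single-end reads. Per the study's methods and the submitters' processing notes, the authors used CASAVA 1.8.2, Trimmomatic and TopHat2 2.0.11 (mm9), kept uniquely mapped reads and counted them with HTSeq. The deposited tables, 1 per group, hold raw counts without normalisation. The annotation and strand setting are not given in the sources used here. Groups and replicate numbers came from the sample titles.

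Counts of all genes were fitted with edgeR 4.0.16 (R 4.3.3): filterByExpr (minimum count 10, minimum total 15), TMM, the quasi-likelihood test without covariate, Benjamini-Hochberg adjustment over 15171 genes and a threshold of 0.05. The study names DESeq2, which served as an alternative (DESeq2 1.42.0), as did limma-voom (limma 3.58.1), other scalings and filters, leaving out each library, a block for the replicate number and a covariate for the Xist-to-Y ratio (log2). Standard errors were the log2 fold change over the square root of F. Shares used counts per kilobase of the longest coding transcript (GENCODE M1, mm9; 20791 gene names matched), summed within a library, and exact two-sided permutation tests. The fit was tested on simulated data. Promoters were read from a RefSeq table (GRCm38.p6), in which 8 of the 10 members matched and Hes1 and Hey1 had no entry.

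Replicates differed by a chi-square of 53.3 to 126.2 per degree of freedom, so each library counted once. The design states biological replicates, without naming animals, and p-values measure the spread between these libraries. The members and lists were chosen with earlier results of these data known. All 10 members are named, and of the other pathway genes those called and the largest rise and fall of each list.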

Additional observations from a re-analysis of the deposited data

How the results depend on the processing

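Of the 10 genes, 5 were called. Limma-voom called 3 (Notch1, Jag2 and Hey1), the replicate block 0, the Xist ratio as a covariate 0, and with 1 library left out in turn the number was 0 to 5. Over all 15171 genes the block and the covariate also called 0. Of the 52 other pathway genes tested 12 were called, beside 2612 of all 15171. With library size alone as the scaling 26 were called, beside 3647, and the median over all tested genes moved from 0.02 to 0.29 (log2). At an adjusted p under 0.1 there were 20, beside 5034. The block and the covariate called 0 here too. With 1 library left out the number was 0 without each control or knockout 3 (beside 0 to 2 of all genes), 2 without knockout 2 (beside 73) and 17 without knockout 1 (beside 5332 of 15494). DESeq2's Wald test called 5 of the 10 genes, 18 of the other pathway genes and 4882 of all genes, against 2612 by edgeR, and library size alone called 3647. With both control 2 and knockout 1 left out, an alternative chosen after seeing the data, 5 and 11 were called, beside 3473 of all 15428 genes tested. The same-numbered libraries of the groups had correlations of -0.13, 0.01 and 0.21 between their deviations, so the numbers were not taken to pair them.

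The log2 fold changes of the 9 genes other than Notch2 were positive under each of the 17 alternatives run. That of Notch2 ranged from -0.15 to 0.17 with 1 library left out, and was -0.15 without control 3, -0.03 without knockout 2 and -0.01 without knockout 3. The share of Jag1 among the ligands differed by 4.98 points, by -0.33 points without knockout 3 and by 8.16 points without knockout 1. That of Notch3 moved from 13.6 to 6.25 points without knockout 3, that of Notch1 from 5.67 to 2.83 without knockout 2 and 8.91 without knockout 3, that of Notch4 from -3.89 to -7.34, -1.81 and -2.51 without knockouts 1, 2 and 3, and that of Dll4 from -5.52 to -9.93, -1.76 and -3.09 without knockout 1, knockout 3 and control 2. The other shares moved by less than 1.5 times. The causes were not tested. Hey1 had the fewest reads of the 10 genes.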
